A study of Homo sapiens with 16 samples.

Results

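The 54 genes described here encode the working parts of the lysosome: 11 cathepsins, 18 other hydrolases, 4 lumenal cofactors and sorting proteins, 7 membrane proteins, 10 subunits or accessory proteins of the vacuolar proton pump (V-ATPase), and 4 genes classed as regulators and adaptor (TFEB, TFE3, MITF and SQSTM1). They were chosen by symbol and function, with no measured value in the rule, but the class was selected on knowledge of earlier results of these data, so its counts are a description and no independent support. All 54 were found among the 27037 genes of the count table. Expression was measured by RNA-seq of polyadenylated RNA in SK-N-BE(2)C, a neuroblastoma cell line with MYCN amplification, in 16 samples. The cells received vehicle (DMSO), 10 µM retinoic acid (RA), 1 µM palbociclib (PB, which blocks CDK4 and CDK6, kinases that drive the cell cycle) or both drugs at the same doses (PB + RA), with 4 samples per treatment. Treatment lasted 5 days. No source names a genetic change made to the cells, all groups are the same line, and the methods describe replicates of a treatment as separate experiments with cells of different passages.

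Lysosomes are acidic vesicles in which hydrolases break down proteins, glycans and lipids delivered by endocytosis and autophagy. The V-ATPase pumps protons into the lumen, most soluble hydrolases reach it through mannose-6-phosphate tagging, and heavily glycosylated membrane proteins line its inner face. TFEB, TFE3 and MITF are related transcription factors that bind E-boxes of the CLEAR form in the promoters of many lysosomal genes. Neurons depend heavily on this system, and inherited loss of a single hydrolase often shows itself as storage disease of the nervous system.

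The E-box core searched was CACGTG, which reads the same on both strands, and the CLEAR form has T just before and A just after that core. Promoter windows from 250 bases before to 50 bases after the start (RefSeq, GRCh38.p14) were at hand for 38 of the 54 genes, and 10 of these windows (26.3%) held the core, against 7.43% of the 27305 windows of all genes. The CLEAR form stood in 6 of the 38 (15.8%), against 1.04% of all windows. The motif was described in promoters of this gene class, so its presence there is background and not a result. The 250 bases upstream of GAA, MCOLN1 and CTSF are shown because these genes are among the most changed of their classes and their windows hold the core, which is given in capitals.
GAA, acid alpha-glucosidase (chr17:80101331-80101580, plus strand, CLEAR form at -76 and -31): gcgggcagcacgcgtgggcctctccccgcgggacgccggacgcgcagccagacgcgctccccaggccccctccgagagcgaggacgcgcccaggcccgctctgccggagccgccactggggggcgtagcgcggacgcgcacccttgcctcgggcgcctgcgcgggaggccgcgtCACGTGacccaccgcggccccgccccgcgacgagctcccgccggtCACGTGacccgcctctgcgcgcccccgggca
MCOLN1, the lysosomal calcium channel mucolipin (chr19:7522374-7522623, plus strand, CLEAR form at -41 and -14): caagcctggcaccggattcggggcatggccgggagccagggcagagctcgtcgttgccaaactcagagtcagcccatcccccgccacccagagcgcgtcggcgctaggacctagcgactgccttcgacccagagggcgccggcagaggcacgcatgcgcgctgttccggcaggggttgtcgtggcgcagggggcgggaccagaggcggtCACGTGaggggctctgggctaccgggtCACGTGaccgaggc
CTSF, cathepsin F (chr11:66568607-66568856, minus strand, core without the CLEAR form at -123 and -51): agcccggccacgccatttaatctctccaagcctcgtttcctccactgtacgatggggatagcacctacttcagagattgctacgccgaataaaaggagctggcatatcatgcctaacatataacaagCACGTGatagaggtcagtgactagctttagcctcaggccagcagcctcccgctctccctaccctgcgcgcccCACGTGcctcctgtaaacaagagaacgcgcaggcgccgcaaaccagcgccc

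The other 4 windows with the CLEAR form are shown as 24 bases around 1 such site each, since 2 of these genes (CTSA and ATP6V0D1) rose with PB + RA and the other two were not called in any comparison.
CTSA (chr20:45891301-45891324, plus strand, core at -25): gccggagttCACGTGactcgtaca
ATP6V0D1 (chr16:67481202-67481225, minus strand, core at -59): ccttatggtCACGTGaggcgcttg
LAMP1 (chr13:113297202-113297225, plus strand, core at -28): ccgcgggatCACGTGacgcccggg
CLN3 (chr16:28492061-28492084, minus strand, core at -1): gggtgctgtCACGTGatccgacaa

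Library totals ran from 19515779 to 31620821 counts, and 15415 genes passed the low-count filter, among them 51 of the 54 genes. In each treatment the samples numbered 1 and 2 deviated from the group mean in the opposite way to those numbered 3 and 4 (r between -0.492 and -0.236 over 48 pairs from different treatments), a split that the labels do not explain, so counts are also given for each set. Summed CPM of 4 proliferation markers (MKI67, TOP2A, CCNB1, BUB1) was 1260 to 1360 with DMSO, 1040 to 1110 with RA, 476 to 613 with PB and 186 to 308 with PB + RA. The sum of 8 adrenergic markers was 2330 to 3700 CPM over all samples, and that of 8 mesenchymal markers was 1900 to 2360 CPM with RA and 952 to 1610 CPM elsewhere. Of the phagocyte markers, whose cells are rich in lysosomes, PTPRC, CSF1R and TYROBP had group means of at most 0.364 CPM, while CD14 had 16.4 CPM with DMSO, 59.3 CPM with RA, 14.2 CPM with PB and 65.0 CPM with PB + RA. The part of these shifts in the results below was not tested, and in bulk RNA a change in the share of cells and a change in RNA per cell cannot be told apart.

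A gene was said to rise or fall where its edgeR adjusted p was below 0.05 and its log2 fold change was beyond 0.5, and each count is read beside the share of all tested genes that met the same rule. With PB, 14 of 51 rose (background 16.9%) and 1 fell (11.3%). With RA, 6 rose, a share near the background (10.8%), and 0 fell (2.54%). Without the fold minimum 2 of 51 were lower with RA at an edgeR adjusted p below 0.05 (background 16.4%) and 5 at an unadjusted p below 0.05, and DESeq2 also called 0 lower. With PB + RA, 26 of 51 rose (24%) and 3 fell (17.9%), a split of 26 to 3 that became 22 to 6 after correction for GC content and exon length. The samples numbered 1 and 2 alone gave 16 higher and 1 lower for PB, 5 higher and 0 lower for RA, and 26 higher and 4 lower for PB + RA. Those numbered 3 and 4 gave 12 and 2, 6 and 0, and 25 and 3. The count raised by RA was 3 without RA replicate 4 and also 3 after correction for GC content and exon length, and the count lowered by PB was 2 on leaving out any sample but DMSO replicate 4 or PB replicate 3. The median log2 fold change of the 51 genes was 0.31 with PB, 0.06 with RA and 0.55 with PB + RA, where the medians of all tested genes were 0.03, 0.01 and 0.04. The GC and length correction lowered the median of all genes with RA to -0.10 and turned that of the 51 genes to -0.08.

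Adding RA to PB raised 7 of 51 (9.02%) and lowered 1 (7.27%), and adding PB to RA raised 26 (14.9%) and lowered 3 (14.1%). All 4 values of the PB + RA samples lay above all 4 of the DMSO samples for 36 of 51 genes (31.4% of all tested genes) and below them for 5 (26.9%). For PB the numbers were 25 above (25.7%) and 6 below (24.2%), and for RA 12 above (19.3%) and 4 below (17.9%). The PB against DMSO and PB + RA against RA comparisons share no sample, and 14 of the 14 genes that rose in the first (100%) rose in the second, where they were 53.8% of the 26. Over all tested genes the corresponding shares were 66.2% and 75.3%. For the effect of RA without PB and that with PB, whose samples are also separate, 4 genes rose in both, 66.7% of the first list and 57.1% of the second (54.4% and 65% over all tested genes). The effects of PB without and with RA had r = 0.906 across the 51 genes (0.814 across all 15415), and those of RA without and with PB had r = 0.872 (0.748), as descriptions across genes that share libraries and depth.

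**Figure D1:**
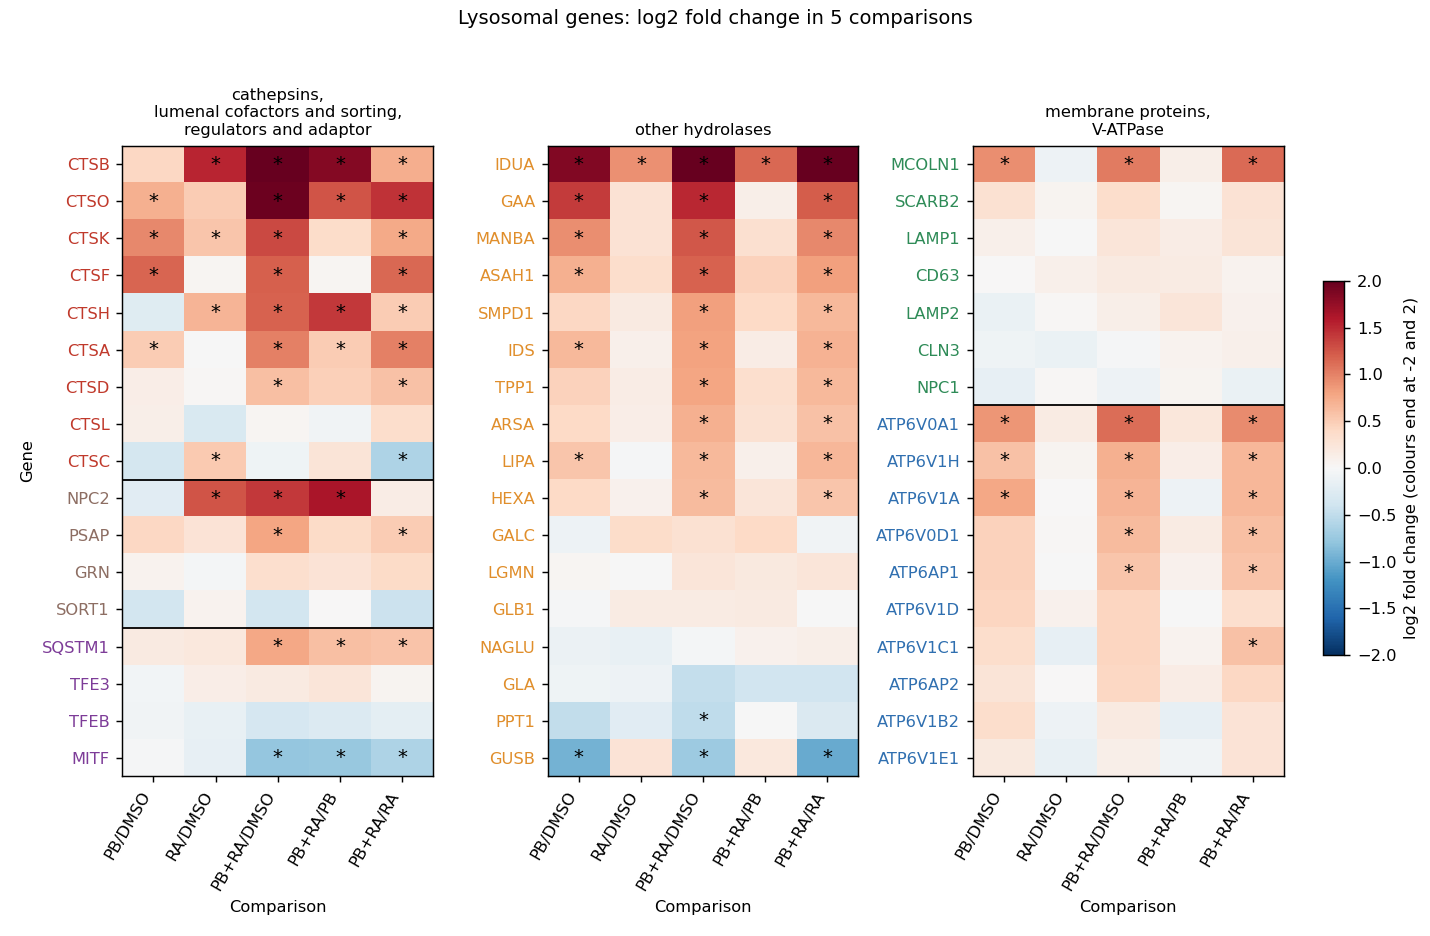
Log2 fold change (colour, ending at -2 and 2) of the 51 tested genes (rows, label colours mark the classes) in the 5 comparisons (columns); an asterisk marks an edgeR adjusted p below 0.05 with a log2 fold change beyond 0.5. The column for RA against DMSO holds 6 asterisks and the column for PB + RA against DMSO holds 29.

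**Figure D2:**
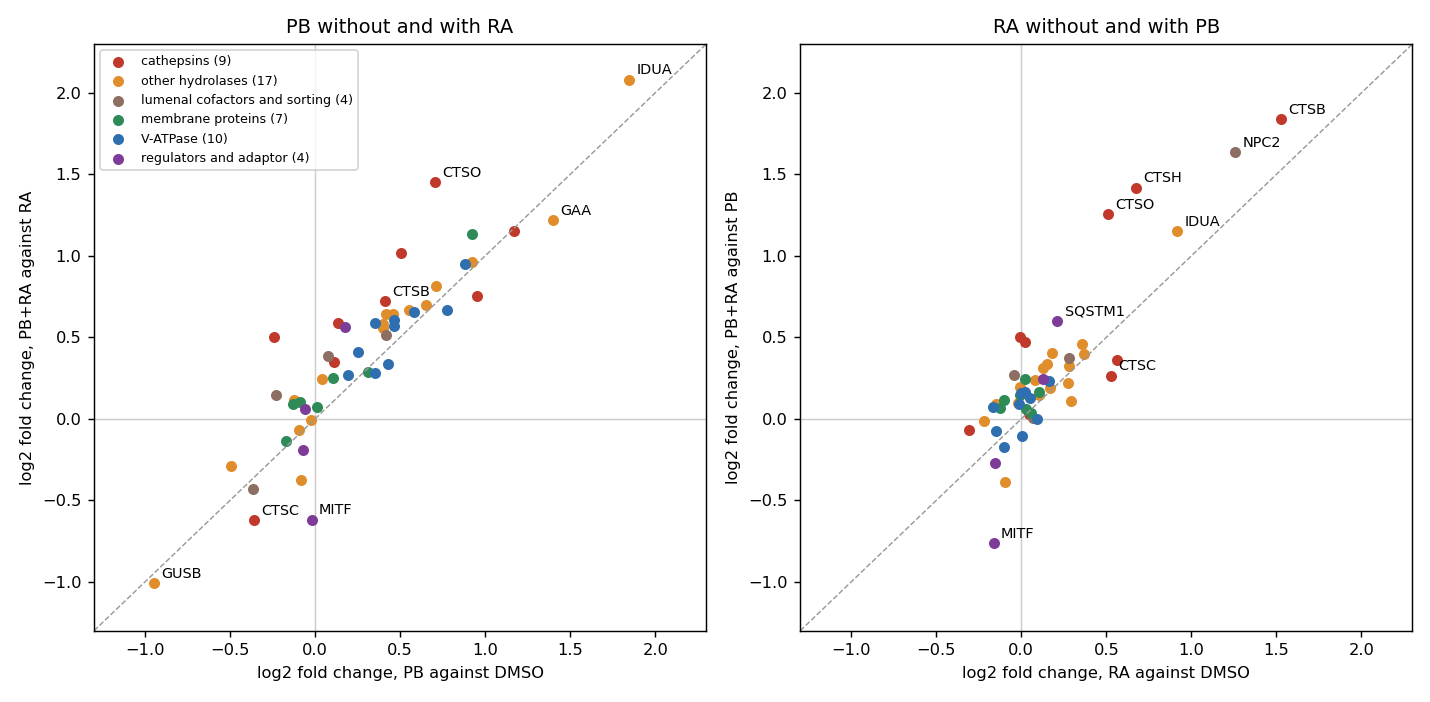
Log2 fold changes of the 51 tested genes for PB without RA (x) and with RA (y) at left and for RA without PB (x) and with PB (y) at right, coloured by class, with the dashed line at equal values. CTSB, NPC2, CTSH and IDUA lie far out in the right panel, while most V-ATPase genes (blue) sit near 0 on both of its axes.

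The cathepsins, proteases that degrade proteins in the lumen, were the class with most RA-raised members in the main fit. Of 9 tested, 4 rose with PB (16.9% of all tested genes), 4 with RA (10.8%) and 7 with PB + RA (24%), and 0 fell in these comparisons (11.3%, 2.54% and 17.9% of all tested genes). At an unadjusted edgeR p below 0.05, 1, 0 and 0 of the 9 were lower, and DESeq2 called 0. CTSC was lower with PB at a smaller fold (log2 fold change -0.36, edgeR adjusted p = 0.003). Of the 4 raised by RA, CTSC, CTSH and CTSK lost the call after GC and length correction (0.38, 0.46 and 0.42). They also lost it without RA replicate 4, and CTSB alone kept it in both. CTSB (chr8:11700033-11727042, hg19), a cysteine protease, was at 1282, 1264, 1431 and 1310.0 CPM with DMSO, 4134, 3459, 3734 and 4024 with RA, 1741, 1914, 1792 and 1576 with PB, and 6270.0, 6575, 6386 and 6410.0 with PB + RA. Every RA sample lay above every DMSO and PB sample, and every PB + RA sample lay above all others. CTSB rose with RA (log2 fold change 1.53, SE 0.0659, edgeR adjusted p = 1.77e-10) and further with PB + RA against RA (log2 fold change 0.72, SE 0.0648, edgeR adjusted p = 1.03e-07), a 4.76-fold difference of PB + RA from DMSO (SE 0.0675 on the log2 scale). With PB alone its log2 fold change was 0.41 (SE 0.0646), below the fold minimum. CTSB made up 15.5% ± 0.363 (SD, n = 4) of the summed CPM of the 54 genes with DMSO, 32.7% ± 1.33 with RA, 16.3% ± 0.993 with PB and 37.3% ± 0.923 with PB + RA. The other 10 cathepsins together had 569.7 ± 10.3 CPM with DMSO, 628 ± 19.7 with RA, 659.9 ± 38.3 with PB and 847 ± 29.5 with PB + RA.

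CTSF and CTSA, a cysteine protease and the serine carboxypeptidase known as protective protein, showed a PB pattern. CTSF (chr11:66330935-66336350) was at 41.4, 43.7, 48.8 and 42.8 CPM with DMSO, 47.6, 47.4, 44.3 and 44.4 with RA, 109, 105, 91.3 and 91.9 with PB, and 127, 112, 85.8 and 88.6 with PB + RA. Its RA samples overlapped those with DMSO, and both groups with PB lay above both groups without it. CTSF rose with PB (log2 fold change 1.17, SE 0.108, edgeR adjusted p = 1.85e-07), and its log2 fold change for PB + RA against PB was 0.03 (SE 0.105, edgeR adjusted p = 0.845). CTSA (chr20:44518783-44527588) was at 98.1, 91.6, 93.2 and 97.1 CPM with DMSO, 93.2, 88.8, 95.7 and 102 with RA, 143, 143, 129.8 and 123 with PB, and 214, 203, 186 and 176 with PB + RA. RA and DMSO samples overlapped, PB samples lay above both, and PB + RA samples lay above the PB samples. CTSA rose with PB + RA against DMSO (log2 fold change 1.01, SE 0.0668, edgeR adjusted p = 1.13e-09), and the excess over the sum of the single-drug effects had a log2 value of 0.51 (SE 0.0939, edgeR adjusted p = 0.00436). It was the 1 member called above additive (background 0.415%), and 0 were called below (3.02%, with 2 at an unadjusted edgeR p below 0.05 and 1, MITF, called by DESeq2). CTSD, described below, had an excess of 0.45 at a smaller edgeR adjusted p (0.00382) and was just under the fold minimum. With the sample number as a block 3 were above (CTSA, CTSH and CTSO) and 1, MITF, was below. The CTSA excess fell to 0.49 without RA replicate 2, 0.48 without PB replicate 4 and 0.47 without PB + RA replicate 1, under the fold minimum. Its log2 fold change with PB alone, 0.50, fell below 0.5 on leaving out any sample other than DMSO replicate 4 or PB replicate 4 (0.45 to 0.49), and was 0.47 to 0.48 with RLE scaling, DESeq2 or no low-count filter, 0.35 after GC and length correction and 0.37 in the samples numbered 3 and 4 alone, and that of PB + RA against PB (0.50) did so without PB replicate 4 (0.46), PB + RA replicate 1 (0.45) or PB + RA replicate 2 (0.48). The latter was 0.40 after the correction and 0.49 in the samples numbered 3 and 4 alone, where the excess was also 0.49. Its exons overlap PLTP and NEURL2 on the opposite strand, and the strand setting of the counting is not given in the sources used here.

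CTSH, an aminopeptidase, was at 6.56, 6.44, 9.61 and 8.36 CPM with DMSO, 10.98, 8.65, 15.1 and 15.1 with RA, 5.71, 5.32, 7.08 and 8.06 with PB, and 14.7, 16.1, 20.04 and 20.7 with PB + RA (chr15:79213400-79241916). PB + RA samples lay above all DMSO and PB samples, while the RA group overlapped both DMSO and PB + RA, and samples numbered 3 and 4 were the higher ones in each treatment. CTSH rose with PB + RA against PB (log2 fold change 1.42, SE 0.197, edgeR adjusted p = 3.74e-05). Its rise with RA (log2 fold change 0.67, edgeR adjusted p = 0.0125) lost the call without RA replicate 3 (edgeR adjusted p = 0.056) or RA replicate 4 (edgeR adjusted p = 0.0541), and after GC and length correction (0.46, edgeR adjusted p = 0.0719). That of PB + RA against RA (log2 fold change 0.50, edgeR adjusted p = 0.0339) fell to between 0.34 and 0.50 on leaving out DMSO replicate 2 or 4, RA replicate 1 or 2, PB replicate 2 or 4, or PB + RA replicate 3 or 4. It was 0.42 after that correction and in the samples numbered 3 and 4 alone. With the sample number as a block its excess over additive was called (0.76, edgeR adjusted p = 0.000336), and without the block it was 0.74 with an edgeR adjusted p of 0.141.

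CTSD, the main aspartic protease, had means of 188, 192, 206 and 292 CPM with DMSO, RA, PB and PB + RA, and rose only in the 2 comparisons of PB + RA with DMSO and with RA among the 5 (0.61 and 0.59 on the log2 scale). After GC and length correction the first of these was 0.39. The excess of CTSD over additive was 0.45 (SE 0.0812, edgeR adjusted p = 0.00382), under the fold minimum. It was past the minimum and called after that correction (0.54) and in the samples numbered 3 and 4 alone (0.54). The same held without RA replicate 4, PB replicate 3 or PB + RA replicate 4 (0.51 to 0.52). CTSC, the dipeptidyl peptidase that activates granule proteases, went the other way from most of the class with PB. It was at 124, 147, 151 and 137 CPM with DMSO, 184, 208, 204 and 217 with RA, 99.2, 111, 116 and 109.8 with PB, and 109.6, 129, 146 and 150.3 with PB + RA, and PB samples lay below all DMSO samples while RA samples lay above them. CTSC rose with RA (log2 fold change 0.53, SE 0.0896, edgeR adjusted p = 0.000294) and fell on adding PB to RA (log2 fold change -0.62, SE 0.0899, edgeR adjusted p = 2.1e-05), and the first call was lost without DMSO replicate 1 (0.45) or RA replicate 4 (0.47), without the low-count filter (0.49), in the samples numbered 3 and 4 alone (0.49) and after GC and length correction (0.38). CTSL, a cysteine endopeptidase, had log2 fold changes of 0.11, -0.31 and 0.04 with PB, RA and PB + RA and was not called.

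The remaining cathepsins were scarce. Of these CTSO and CTSK, cysteine proteases, had DMSO means of 1.09 and 1.55 CPM, and both rose with PB + RA (1.96 and 1.3157 on the log2 scale). The PB call of CTSO (0.71) was lost without DMSO replicate 1, 2 or 4 or PB replicate 3 or 4 (0.52 to 0.73, edgeR adjusted p between 0.0535 and 0.113), and the RA call of CTSK (0.56) without DMSO replicate 3 or RA replicate 3 or 4 (0.45 to 0.50). CTSO also lost it in the samples numbered 3 and 4 alone (0.51) and without the low-count filter (0.67), and CTSK in those numbered 1 and 2 alone (0.27), without the low-count filter (0.52, edgeR adjusted p = 0.054) and after GC and length correction (0.42). With the sample number as a block CTSO was also called with RA (0.50, edgeR adjusted p = 0.031). CTSS, which is typical of antigen-presenting cells, had 1 to 15 counts per sample and CTSZ 0 to 4, and neither passed the low-count filter. The exons of CTSZ overlap those of NELFCD over 6136 bases on the opposite strand, and NELFCD had a mean of 170.0 CPM.

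**Figure D3:**
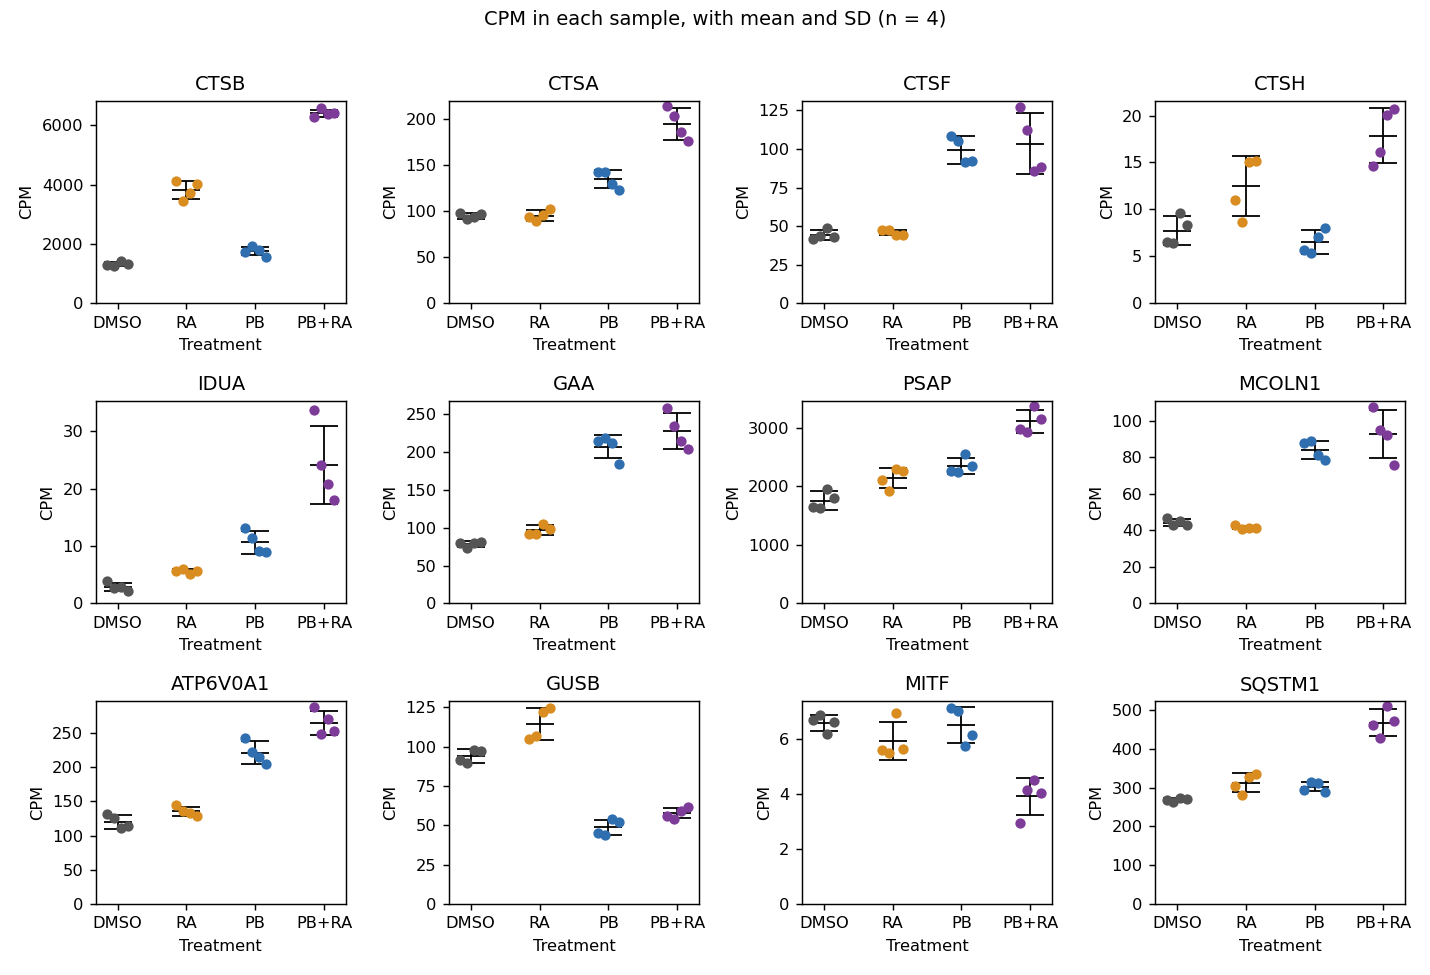
CPM (y axis, from 0) of 12 genes in each of the 16 samples by treatment (x axis); points are samples ordered by number, and bars give the mean and SD (n = 4). CTSB stands apart with RA, CTSF, GAA, MCOLN1 and ATP6V0A1 with PB, GUSB is low with PB, and MITF is low with PB + RA.

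Among the 18 other hydrolases, 17 were tested, and 6 rose with PB (16.9% of all tested genes), 1 with RA (10.8%) and 10 with PB + RA (24%). IDUA (chr4:980785-998352), alpha-L-iduronidase of heparan and dermatan sulfate breakdown, was at 3.90, 2.73, 2.94 and 2.25 CPM with DMSO, 5.69, 6.07, 5.16 and 5.63 with RA, 13.2, 11.4, 9.22 and 8.92 with PB, and 33.7, 24.0, 20.8 and 18.1 with PB + RA. No 2 treatments overlapped, in the order DMSO, RA, PB and PB + RA. IDUA rose with PB (log2 fold change 1.85, SE 0.201, edgeR adjusted p = 1.11e-06), with RA (log2 fold change 0.92, SE 0.204, edgeR adjusted p = 0.00248) and with PB + RA (log2 fold change 3.0, SE 0.202, edgeR adjusted p = 1.52e-09), and its log2 fold change with the combination was the highest of the 51. Its counts were 58 to 848 per sample.

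GAA (chr17:78075332-78093680), which releases glucose from lysosomal glycogen and whose promoter is printed above, was at 80.0, 73.3, 80.0 and 80.5 CPM with DMSO, 91.9, 91.4, 105 and 98.4 with RA, 214, 218, 211 and 184 with PB, and 258, 234, 214 and 204 with PB + RA. PB and PB + RA samples overlapped and both lay above all RA samples, which lay above all DMSO samples. GAA rose with PB (log2 fold change 1.40, SE 0.0759, edgeR adjusted p = 8.82e-10) and not by the fold minimum with RA (log2 fold change 0.29, edgeR adjusted p = 0.00667). MANBA (chr4:103551927-103682151), beta-mannosidase, was at 10.5, 8.89, 10.1 and 11.5 CPM with DMSO, 10.7, 11.6, 14.4 and 13.3 with RA, 20.9, 20.03, 18.2 and 18.5 with PB, and 24.2, 25.4, 22.7 and 27.0 with PB + RA. Its PB and PB + RA groups were each above both other groups. MANBA rose with PB (log2 fold change 0.92, SE 0.0971, edgeR adjusted p = 7.33e-07) and with PB + RA (log2 fold change 1.25, SE 0.0968, edgeR adjusted p = 7.97e-09). IDS (chrX:148558519-148602635), iduronate 2-sulfatase and the hydrolase with the highest CPM per kb of exon in its class, was at 360.0, 359, 367 and 392.1 CPM with DMSO, 414, 361, 418 and 404 with RA, 599, 541, 599.7 and 583 with PB, and 622, 603, 711 and 692 with PB + RA. RA overlapped DMSO, and both PB groups lay above them. IDS rose with PB (log2 fold change 0.65, SE 0.0602, edgeR adjusted p = 1.67e-07).

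The lipid and peptide hydrolases that rose did so mainly with PB present. ASAH1 (acid ceramidase) rose with PB (0.71 on the log2 scale) and with PB + RA (1.17), and LIPA (acid lipase) had 0.55 and 0.65, the first falling to 0.49 or less when DMSO replicate 3 or either of PB replicates 1 and 2 was left out and to 0.37 in the samples numbered 3 and 4 alone. SMPD1 (acid sphingomyelinase), TPP1 (tripeptidyl peptidase), ARSA (arylsulfatase A) and HEXA (the alpha chain of hexosaminidase) had log2 fold changes of 0.40 to 0.46 with PB and rose with PB + RA by 0.64 to 0.82. HEXA did not reach the minimum after GC and length correction (0.35). GALC, GLB1, NAGLU and LGMN, which act on galactosylceramide, galactosides, heparan sulfate and asparaginyl bonds, passed the rule in none of the 5 comparisons and had log2 fold changes between -0.15 and 0.40. GLA, alpha-galactosidase A, had -0.47 with PB + RA (edgeR adjusted p = 1.66e-06), just short of the fold minimum. It was past the minimum and called lower after GC and length correction (-0.58), without the low-count filter (-0.50) and in the samples numbered 1 and 2 alone (-0.51). The same held on leaving out any 1 of 7 samples (-0.54 to -0.50).

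GUSB and PPT1 went down. GUSB (chr7:65425671-65447202), beta-glucuronidase, was at 91.4, 89.3, 98.1 and 97.3 CPM with DMSO, 105, 107, 122 and 125 with RA, 45.2, 43.8, 53.8 and 51.8 with PB, and 56.1, 54.02, 59.1 and 61.7 with PB + RA. Its PB groups lay below the DMSO samples and its RA samples above them. GUSB fell with PB (log2 fold change -0.95, SE 0.0766, edgeR adjusted p = 4.04e-08) and with PB + RA (log2 fold change -0.73, SE 0.0761, edgeR adjusted p = 2.79e-07). Pseudogene copies of GUSB had up to 12.0 CPM, so reads between copies may have been split. PPT1 (chr1:40538382-40562932), palmitoyl-protein thioesterase, was at 99.0, 107, 106 and 108 CPM with DMSO, 88.5, 90.4, 91.8 and 92.1 with RA, 72.9, 74.4, 70.5 and 79.7 with PB, and 71.3, 76.0, 74.3 and 79.8 with PB + RA. Every treated group lay below DMSO. PPT1 fell with PB + RA (log2 fold change -0.51, SE 0.0475, edgeR adjusted p = 8.11e-08). Its log2 fold change with PB was -0.495 (edgeR adjusted p = 2.61e-07), just short of the minimum, and it lay between -0.50 and -0.56, past the minimum, on leaving out any sample but DMSO replicate 4 or PB replicate 3, so that the count lower with PB became 2. NEU1, the lysosomal sialidase, had 6 counts in all 16 samples, with 0 in each DMSO sample, which allows at most 0.0949 to 0.122 CPM there by counting error alone. It lies in the window chr6:31000000-33000000 (hg19), where 32 of 52 protein-coding genes (61.5%) had under 10 counts, against 18.6% elsewhere, so its level is not read here.

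The lumenal cofactors and sorting proteins differed from one another. PSAP (chr10:73576055-73611008), the precursor of the saposins that present lipids to hydrolases, had the highest CPM per kb of exon of all 54 genes (750.5) and was at 1650.0, 1622, 1959 and 1792 CPM with DMSO, 2098, 1927, 2296 and 2256 with RA, 2252, 2248, 2545 and 2338 with PB, and 2982, 2928, 3368 and 3147 with PB + RA. PB + RA samples lay above all others, and RA overlapped DMSO. PSAP rose with PB + RA (log2 fold change 0.79, SE 0.0718, edgeR adjusted p = 5.27e-08) and against RA (log2 fold change 0.52, SE 0.0716, edgeR adjusted p = 1.39e-05), the latter falling to 0.45 to 0.50 without DMSO replicate 2, RA replicate 1 or 2, PB replicate 2 or 4, or PB + RA replicate 3. NPC2, which carries cholesterol out of the lumen, was at 2.94, 2.32, 4.11 and 4.88 CPM with DMSO, 5.98, 5.58, 8.74 and 14.2 with RA, 2.66, 2.81, 2.80 and 3.89 with PB, and 7.87, 7.31, 9.82 and 13.8 with PB + RA. Groups with RA lay above groups without it, and within the RA groups replicate 4 was highest. NPC2 rose with RA (log2 fold change 1.26, SE 0.299, edgeR adjusted p = 0.00426) and on adding RA to PB (log2 fold change 1.64, SE 0.308, edgeR adjusted p = 0.000663), and with 57 to 315 counts per sample its exons overlap over 103 bases with ISCA2 on the opposite strand, which had 14.1 CPM. GRN, progranulin, and SORT1, the sorting receptor sortilin, passed the rule in none of the 5 comparisons of the main fit. They had log2 fold changes with PB + RA of 0.34 (edgeR adjusted p = 0.000972) and -0.36 (edgeR adjusted p = 0.000396). After GC and length correction SORT1 was called lower with PB + RA (-0.58). It was also called lower for PB + RA against RA in the samples numbered 1 and 2 alone (-0.56) and without PB + RA replicate 3 (-0.50).

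Of the 7 membrane proteins, MCOLN1 was called and the other 6 were not, in any of the 5 comparisons. So 1 of 7 rose with PB, with PB + RA and on adding PB to RA, no more than the shares of all tested genes (16.9%, 24% and 14.9%). With RA, and on adding RA to PB, 0 rose (10.8% and 9.02%). MCOLN1 (chr19:7587510-7598895), a cation channel that lets calcium out of the lysosome, was at 46.8, 42.8, 45.1 and 42.8 CPM with DMSO, 43.1, 40.9, 41.1 and 41.5 with RA, 87.8, 89.1, 81.2 and 78.5 with PB, and 108, 95.3, 92.4 and 75.7 with PB + RA. Every PB and PB + RA sample lay above every sample of the other groups. MCOLN1 rose with PB (log2 fold change 0.92, SE 0.0826, edgeR adjusted p = 1.23e-07) and with PB + RA (log2 fold change 1.04, SE 0.0826, edgeR adjusted p = 1.12e-08), and had -0.10 with RA (edgeR adjusted p = 0.376). CD63 (chr12:56119107-56123491), a tetraspanin and the most abundant of the class per kb of exon, was at 434, 431, 506 and 476 CPM with DMSO, 485, 459.9, 518 and 536 with RA, 422, 468, 495 and 475 with PB, and 489, 544, 548 and 546 with PB + RA. All 4 groups overlapped, with a log2 fold change of 0.17 (SE 0.0674) for PB + RA. The structural proteins LAMP1 and LAMP2 had 0.25 (edgeR adjusted p = 0.000601) and 0.11 with PB + RA, SCARB2, the receptor that carries glucocerebrosidase to the lysosome, had 0.35, and the cholesterol exporter NPC1 and CLN3 had -0.11 and -0.02.

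V-ATPase genes moved together with PB. All 10 had an edgeR adjusted p below 0.05 with PB (28.4% of tested genes did so in the upward direction), all higher, with log2 fold changes of 0.20 to 0.88, and 3 of them passed the fold minimum. With RA 0 of 10 did so (18.8% higher and 16.4% lower over all tested genes), 3 of 10 were past an unadjusted p below 0.05, and DESeq2 called 0, the log2 fold changes lying between -0.16 and 0.16. With PB + RA 5 rose (24% of all tested genes), and on adding PB to RA 6 rose (14.9%). ATP6V0A1 (chr17:40610862-40674600), the membrane subunit a1 typical of neurons, was at 132, 126, 110.3 and 114 CPM with DMSO, 145, 136, 132 and 129 with RA, 243, 223, 216 and 204 with PB, and 288, 249, 270.2 and 254 with PB + RA. The RA group overlapped DMSO, and the PB groups lay above both. ATP6V0A1 rose with PB (log2 fold change 0.88, SE 0.0690, edgeR adjusted p = 2.92e-08) and with PB + RA (log2 fold change 1.11, SE 0.0692, edgeR adjusted p = 5.25e-10).

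The catalytic and regulatory subunits of the cytosolic V1 sector followed. ATP6V1A (chr3:113465617-113530903), the ATP-hydrolysing subunit, was at 123, 132, 121 and 123 CPM with DMSO, 134, 133, 118 and 118 with RA, 244, 221, 196 and 194 with PB, and 199.5, 217, 199 and 196 with PB + RA. PB and PB + RA overlapped and both lay above DMSO and RA. ATP6V1A rose with PB (log2 fold change 0.78, SE 0.0693, edgeR adjusted p = 1.2e-07), with -0.10 on adding RA (edgeR adjusted p = 0.26). ATP6V1H (chr8:54628103-54756118), a regulatory subunit, was at 65.8, 67.0, 65.8 and 63.2 CPM with DMSO, 71.3, 68.3, 65.4 and 68.1 with RA, 104, 93.8, 98.3 and 95.3 with PB, and 109.7, 106, 111 and 110.2 with PB + RA. Its PB samples lay above all DMSO and RA samples and below all PB + RA samples. ATP6V1H rose with PB (log2 fold change 0.58, SE 0.0445, edgeR adjusted p = 2.29e-08). ATP6AP1 (chrX:153656979-153664862), an accessory protein of assembly and the class member with the highest CPM per kb of exon, was at 242, 229.8, 252 and 254 CPM with DMSO, 246, 229, 249.7 and 248 with RA, 338, 337, 342 and 328 with PB, and 372, 352, 380.0 and 358 with PB + RA. RA and DMSO overlapped, and PB samples lay between them and the PB + RA samples. ATP6AP1 rose with PB + RA (log2 fold change 0.55, SE 0.0443, edgeR adjusted p = 1.17e-08), with 0.46 for PB alone, and its PB + RA value was 0.497 without DMSO replicate 2 and 0.35 after GC and length correction. ATP6V0D1, whose promoter holds the CLEAR form, rose with PB + RA (0.63, or 0.37 after that correction).

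Other V-ATPase genes, from a list of 15 further subunits, were less uniform. With PB, 5 of the 10 tested genes of this list had a positive log2 fold change, and the highest was 0.38. Their median was 0.13, against 0.45 for the 10 genes above. At an edgeR adjusted p below 0.05, 5 of them were higher and 1 was lower with PB. Of the 20 tested genes of both lists, 15 were higher and 1 was lower with PB by that rule. With RA 1 was higher and 3 were lower (over all tested genes 28.4% and 25.2% with PB, 18.8% and 16.4% with RA). TCIRG1, the a3 subunit of osteoclasts and immune cells, fell with PB + RA (log2 fold change -0.85, SE 0.0931, edgeR adjusted p = 5.11e-07) and fell on adding RA to PB (-0.81). The a2 subunit ATP6V0A2 had -0.37 with PB + RA (edgeR adjusted p = 7.6e-06). ATP6V0E1, a small membrane subunit, rose with PB + RA (log2 fold change 0.57, SE 0.0532, edgeR adjusted p = 8.3e-08), or 0.495 without PB + RA replicate 2.

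**Figure D4:**
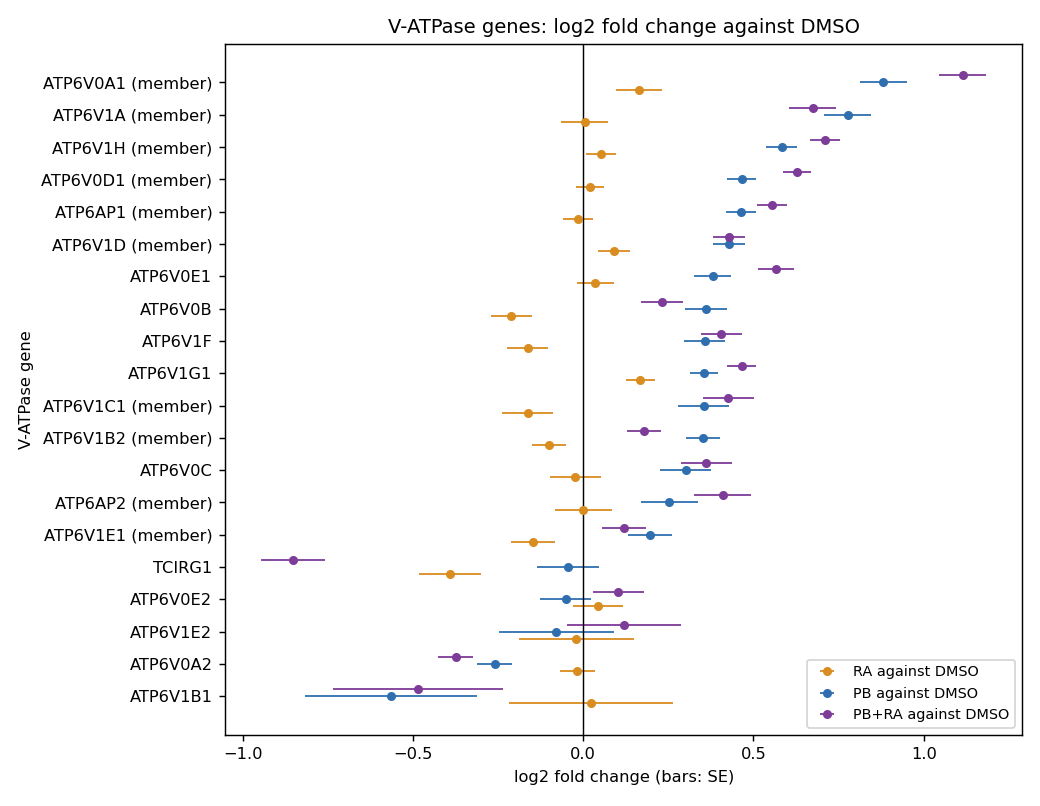
Log2 fold change against DMSO (x axis, bars are SE) of the 20 tested V-ATPase genes (y axis, sorted by the PB value) with RA, PB and PB + RA. The 10 genes of the main list have PB values of 0.20 to 0.88 and RA values of -0.16 to 0.16, and TCIRG1 stands at -0.85 with PB + RA.

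The transcription factors of the CLEAR network did not rise. TFEB (chr6:41651716-41703997) was at 28.8, 35.1, 29.4 and 25.7 CPM with DMSO, 26.3, 31.9, 24.9 and 24.7 with RA, 29.9, 33.0, 26.8 and 23.4 with PB, and 23.0, 27.1, 24.3 and 21.3 with PB + RA. All groups overlapped. Its log2 fold change was -0.07 with PB, -0.15 with RA and -0.34 with PB + RA (edgeR adjusted p = 0.018), and the last value passed the minimum only after GC and length correction (-0.59, with or without the block) among the alternatives tried. TFE3 (chrX:48886237-48900936) was at 80.2, 82.6, 80.4 and 80.5 CPM with DMSO, 87.3, 88.2, 88.8 and 91.3 with RA, 77.3, 75.8, 80.8 and 76.6 with PB, and 97.6, 88.8, 95.7 and 93.2 with PB + RA. RA and PB + RA samples lay above DMSO samples, and PB overlapped DMSO. TFE3 had log2 fold changes of -0.06, 0.13 and 0.19 with PB, RA and PB + RA, the last with an edgeR adjusted p of 0.000979 and under the fold minimum. MITF (chr3:69788607-70017487), best known from pigment cells, was at 6.70, 6.89, 6.198 and 6.62 CPM with DMSO, 5.61, 5.50, 6.97 and 5.63 with RA, 7.12, 7.01, 5.75 and 6.16 with PB, and 2.94, 4.16, 4.53 and 4.05 with PB + RA. The 4 PB + RA samples lay below all 12 others. MITF fell with PB + RA against DMSO (log2 fold change -0.78, SE 0.129, edgeR adjusted p = 5.15e-05), against PB (log2 fold change -0.76, SE 0.130, edgeR adjusted p = 0.00025) and against RA (log2 fold change -0.62, SE 0.130, edgeR adjusted p = 0.000728), at 74 to 196 counts per sample. In the samples numbered 3 and 4 alone the value against PB was -0.49, under the fold minimum. These are RNA levels, and the activity of these factors, which is set largely by phosphorylation, was not measured.

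SQSTM1 (chr5:179233398-179265078), the p62 adaptor that brings ubiquitinated cargo to autophagosomes, was at 268, 263, 272 and 269 CPM with DMSO, 305, 282, 328 and 334 with RA, 294, 314, 312 and 289.7 with PB, and 461, 428, 511 and 470.5 with PB + RA. Both single-drug groups lay above DMSO and the PB + RA group above both. SQSTM1 rose with PB + RA against DMSO (log2 fold change 0.78, SE 0.0595, edgeR adjusted p = 6.93e-09), PB (0.60) and RA (0.56, or 0.497 without RA replicate 2), and the last 2 values were 0.50 (0.495) and 0.48 after GC and length correction. Its single-drug values were 0.17 and 0.21, and its excess over additive, 0.39, had an edgeR adjusted p of 0.0118 and was under the fold minimum. Its exons overlap MGAT4B (553 CPM) over 105 bases and MRNIP (17.7 CPM) over 1582 bases, both on the opposite strand.

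Genes whose windows held the CLEAR form had log2 fold changes of -0.09 to 1.40 with PB, -0.13 to 0.29 with RA and -0.02 to 1.51 with PB + RA, with 3, 0 and 4 of the 6 rising (16.9%, 10.8% and 24% of all tested genes). The 27 tested genes whose windows held no core ran from -0.95 to 1.85 with PB (4 rising, 1 falling), from -0.31 to 1.26 with RA (4 rising, 0 falling) and from -0.78 to 3.0 with PB + RA (10 rising, 3 falling). GAA and MCOLN1, with 2 CLEAR forms each, were at the upper end, while LAMP1, also with 2, had 0.10 with PB. Of the 3 tested genes with the core alone, 1 rose with PB, 0 with RA and 2 with PB + RA. The 15 tested genes without a window at hand, whose motif status is unknown, had 6, 2 and 10 rising and 0 falling. Their median log2 fold changes, 0.41 with PB and 0.71 with PB + RA, lay near those of the CLEAR group (0.48 and 0.82). The medians of the genes with no core were lower, at 0.075 and 0.34, and those of the genes with the core alone were 0.13 and 0.61. Over all tested genes 16.9%, 10.8% and 24% rose and 11.3%, 2.54% and 17.9% fell with PB, RA and PB + RA. The groups are small, the windows cover a single start per gene, and no test was made of the differences.

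Other genes of the pathway, 89 listed and 83 tested, were counted by the same rule. With PB 14 of 83 rose, a share near that of all tested genes (16.9%), and 2 fell (11.3%). With RA 8 rose, also a share near the background (10.8%), and 2 fell (2.54%). With PB + RA 30 rose and 4 fell (24% and 17.9%). On adding RA to PB 9 rose and 2 fell (9.02% and 7.27%), and on adding PB to RA 23 rose and 2 fell (14.9% and 14.1%). Their median log2 fold changes were 0.15, 0.01 and 0.32 with PB, RA and PB + RA. The autophagosome coat genes GABARAPL1 and MAP1LC3B were among the most changed: GABARAPL1 was at 31.2, 29.6, 31.3 and 33.7 CPM with DMSO, 63.1, 62.9, 66.6 and 69.9 with RA, 87.9, 84.9, 92.3 and 86.0 with PB, and 152, 145, 160.5 and 156 with PB + RA. No 2 treatments overlapped, in the order DMSO, RA, PB and PB + RA. GABARAPL1 rose with PB (1.48), RA (1.05) and PB + RA (2.26, SE 0.0537, edgeR adjusted p = 7.7e-14), and MAP1LC3B with 0.98, 0.55 and 1.31, its RA call being lost without DMSO replicate 1 or RA replicate 3 (0.49 to 0.50) and after GC and length correction (0.41).

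In the same list the nucleoside transporter SLC29A3 rose with PB (0.63), RA (0.59) and PB + RA (1.82). In the samples numbered 3 and 4 alone its PB and RA values were 0.35 and 0.41, and after GC and length correction the RA value was 0.44, all under the minimum. The potassium channel TMEM175 rose with PB (0.92) and PB + RA (1.12). GNPTG, a subunit of the enzyme that makes the mannose-6-phosphate tag, rose with PB (0.64, or 0.45 in the samples numbered 3 and 4 alone) and PB + RA (0.90), and the sorting receptor SORL1 rose with PB + RA (1.28). CTSV, a close relative of CTSL, rose with PB + RA (0.78), a call lost in the samples numbered 1 and 2 alone (0.75, edgeR adjusted p = 0.0622). The acid nuclease DNASE2 fell with PB (log2 fold change -1.41, SE 0.107, edgeR adjusted p = 2.08e-08) and with PB + RA (-1.48). It was at 22.2, 25.0, 23.8 and 20.7 CPM with DMSO, 17.6, 21.1, 20.8 and 21.9 with RA, 7.89, 8.27, 9.55 and 8.69 with PB, and 6.76, 8.37, 9.05 and 9.38 with PB + RA. The groups with PB lay below those without it.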

How the data were processed

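RNA was extracted from SK-N-BE(2)C cells, and polyadenylated RNA was made into directional libraries that were sequenced from both ends. The authors trimmed reads with Trim Galore 0.6.4, aligned them with STAR 2.6.1d to hg19 and deposited raw counts per gene. They also deposited CPM, which equals each count over its library total times 1000000 (largest difference 5e-12). Another deposited table holds the authors' own DESeq2 log2 fold changes and p-values and was not used. The gene annotation and the strand setting of the counting are not given in the sources used here. STAR, DESeq2 (1.32.0) and build versions come from the submitters' processing notes.

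The 54 genes and all lists were chosen with earlier results of these data known. Counts were fitted with edgeR 4.0.16 (limma 3.58.1, R 4.3.3): TMM scaling, the filterByExpr low-count filter, and 1 quasi-likelihood fit over all 16 samples with 1 coefficient per group. Adjusted p-values (Benjamini-Hochberg) cover all 15415 genes tested, and SE is the absolute log2 fold change over the square root of F. Genes at an adjusted p below 0.05 with a log2 fold change beyond 0.5 were called. The interaction is the log2 fold change of PB + RA minus those of PB and RA, all against DMSO. Values per sample are the deposited CPM, and levels between genes are CPM per kb of exon (GENCODE 44 lifted to hg19).

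Values in every sample are given for up to 3 called genes per class with the largest PB + RA change and a mean of at least 10 CPM, the 4 regulators and adaptor, the gene with the highest CPM per kb of each class, and genes called for the interaction. CTSC, NPC2, GUSB, PPT1 and the level of CTSD were added after their values were seen, as were the short promoter stretches of CTSA, ATP6V0D1, LAMP1 and CLN3. For the other genes of the pathway (88 of 89 matched by symbol, 1 of them through a synonym), the rule takes the 2 largest called changes of each class.

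Same-numbered samples of different treatments deviated together (r between 0.33 and 0.573 in all 24 pairs), so the numbers were taken as pairs in an alternative fit with the number as a block. The main fit has no block, so its SEs and adjusted p-values, printed unless a block is named, include the spread between the numbers. The other alternatives were RLE scaling, no low-count filter, DESeq2 1.42.0, a GC and exon length correction (95.2% of genes), no fold minimum, samples numbered 1 and 2 or 3 and 4 alone, and leaving out each sample. Tested on simulated data for the PB and DMSO comparison, the fit recovered 59% of 200 genes set to differ by 0.6 on the log2 scale, 82.5% at a difference of 1 and 96.5% at 2. The simulated samples held no split by number and far fewer changed genes than the real data, so the shares may differ there. The library totals of 19515779 to 31620821 counts limit precision by counting error alone to a floor (3 counts) of 0.0949 to 0.154 CPM.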

Additional observations from a re-analysis of the deposited data

Results flagged for a closer look

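Within groups of 4 samples, 5 values stood apart from the other 3 of their group by more than Dixon's critical value, out of 76 groups of named genes examined, where chance marks about 1 in 20. GAA was at 73.3 CPM in DMSO replicate 2, below the other DMSO samples. TFE3 was at 82.6 CPM in the same sample, above the others. CD63 was at 489 CPM in PB + RA replicate 1, below the others, ATP6V1A at 217 CPM in PB + RA replicate 2, above them, and MITF at 6.97 CPM in RA replicate 3, above the other RA samples.

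The CTSA effect of PB differed with and without RA by the interaction test, with an excess over additive of 0.51 on the log2 scale (edgeR adjusted p = 0.00436). Every PB + RA sample, 4 of 4, was above all samples of the other treatments.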

How the results depend on the processing

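Single genes were followed under the alternatives for the 51 genes and for the other genes named by the rule, and the remaining genes of the pathway were only counted. Of the genes followed, no called gene changed direction under any alternative, and 8850 of 9150 values stayed on the same side of the calling rule. The median of the 51 genes with RA turned from 0.06 to -0.08 after GC and length correction (-0.09 with the block as well). Without the fold minimum the calls were 29 higher and 5 lower with PB, 14 and 2 with RA, 37 and 6 with PB + RA, 26 and 3 for PB + RA against PB, 34 and 6 against RA, and 3 above and 1 below additive. For the 83 other genes of the pathway they were 36 and 11, 19 and 12, 47 and 14, 30 and 5, and 51 and 9 in the same order. Over all 15415 tested genes they were 4378 and 3891 with PB (28.4% and 25.2%), 2893 and 2527 with RA (18.8% and 16.4%), and 5350 and 4839 with PB + RA. For PB + RA against PB they were 2652 and 3225, against RA 4090 and 4301, and 146 were above and 670 below additive. The RA counts of the other genes lay near the shares of all tested genes. The GC and length correction gave 2 lower with PB, 3 higher with RA, 6 lower with PB + RA and 2 above additive, and for the other genes 1 higher and 4 lower with RA, 9 lower with PB + RA and 5 lower for PB + RA against PB. Together with the replicate block it gave 3 lower with PB, 3 higher with RA, 6 lower with PB + RA, 4 above and 1 below additive, and for the other genes 2 higher and 4 lower with RA, 9 lower with PB + RA and 5 lower against PB. The replicate block on its own, which follows the pairing of the numbers, gave 3 above and 1 below additive and moved no other count by over 1.5 times. RLE scaling, no low-count filter and DESeq2 each gave 2 lower with PB, DESeq2 gave 1 below additive, and without the low-count filter 4 other genes were higher with RA. Samples numbered 1 and 2 alone gave 2 above additive, and for the other genes 5 higher and 1 lower with RA. Those numbered 3 and 4 gave 2 lower with PB, 0 lower for PB + RA against PB and 2 above additive, and for the other genes 5 higher with RA and 8 lower with PB + RA. On leaving out 1 sample, 12 to 14 rose and 1 to 2 fell with PB, 3 to 6 rose with RA (3 without RA replicate 4, 4 without RA replicate 3), 25 to 26 rose and 3 to 4 fell with PB + RA, 6 to 9 rose against PB, 23 to 26 rose and 3 to 4 fell against RA, and 0 to 2 were above and 0 to 1 below additive (0 above without RA replicate 2, PB replicate 4 or PB + RA replicate 1, 1 below without PB + RA replicate 3). For the other genes 14 to 15 rose and 1 to 4 fell with PB, 3 to 8 rose and 2 fell with RA, 25 to 30 rose and 4 to 8 fell with PB + RA, 6 to 9 rose and 2 to 4 fell against PB, and 19 to 25 rose and 2 to 5 fell against RA. The samples behind the lowest and highest of these were DMSO replicate 4 and PB replicate 2 (1 lower with PB) and PB replicate 3 (4), DMSO replicate 1 (3 higher with RA), PB + RA replicate 2 (8 lower with PB + RA), PB replicates 3 and 4 and PB + RA replicate 2 (4 lower against PB), and PB + RA replicate 3 (5 lower against RA). The causes of these shifts were not tested. The SEs for PB + RA were highest for NPC2, CTSO, IDUA, CTSH and CTSK (0.17 to 0.299), which had between 17 and 110 counts in their lowest samples.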

Other observations

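Among the genes that control TFEB and start autophagy, 19 were tested. Of these 5 rose with PB (16.9% of all tested genes), 3 with RA (10.8%) and 8 with PB + RA (24%). In the same comparisons 0 fell (11.3%, 2.54% and 17.9%). The genes named here were picked after their values were seen, and their values under the alternatives were not examined singly. ULK1, the kinase that starts autophagy, had log2 fold changes of 0.81 with PB, 0.55 with RA and 1.25 with PB + RA, and WIPI1, which marks forming autophagosomes, had 0.86, 0.23 and 1.02. RRAGB, a Rag GTPase that recruits mTORC1 to the lysosome, rose by 1.06 with PB + RA, and FLCN and FNIP1, which act on the Rag GTPases, by 0.55 and 0.67. RRAGD, a known TFEB target, had -0.50 with PB + RA and was not called. The chloride exchanger CLCN7 (0.84), the mannose-6-phosphate receptor IGF2R (0.87) and the acid ceramidase relative NAAA (-0.44, not called) were other values of the list.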
